A study of Mus musculus with 2 samples.

Results

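The genes of haem synthesis were followed in platelet RNA, step by step along the pathway, with the mitochondrial importers that supply it. The 9 genes are 7 enzymes (Alas2, Alad, Uros, Urod, Cpox, Ppox and Fech) and 2 importers (Slc25a37 and Slc25a38), out of 18193 genes with a probe set annotated to them alone. They were chosen by their place in the pathway and with their ratios on these same arrays already known, so the values below are a description and no test of them is given. All 19 probe sets whose only gene symbol is one of the 9 were used, and 1 more that shares its annotation between Slc25a37 and another gene was left out.

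The RNA came from washed platelets of C57BL/6 mice. In the Smad4 −/− mice, a floxed Smad4 gene had been removed by Cre recombinase driven by the PF4 promoter, which is active in megakaryocytes, the cells that shed platelets. The Smad4 f/f mice carried the floxed gene undeleted and served as the control. The labels do not say whether they carried Cre, and they give neither age nor sex. Smad4 is the shared partner of the SMAD proteins that carry TGF-beta and BMP signals to the nucleus, and the comparison asks what its loss in megakaryocytes does to the RNA that platelets hold. Each genotype is represented by a single array, for which the labels count 6 mice, with nothing said on pooling. The values below therefore cannot be set against the spread between animals, no test was possible, and precision is limited by the number of arrays.

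Haem is made partly in the mitochondrion and partly in the cytosol. Glycine and succinyl-CoA are joined in the mitochondrion, the product is built up into a porphyrin ring in the cytosol, and the last steps, ending with the insertion of iron, take place in the mitochondrion again. Red cell precursors make most of the body's haem, for haemoglobin, and use a form of the first enzyme of their own, while platelets and megakaryocytes need haem for enzymes such as thromboxane synthase and for the respiratory chain.

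Each array gives every probe set a log2 signal, printed here as its linear antilog unless said otherwise. A signal floor of 145 (log2 7.18) serves as a working cut. It was set by a percentile of the array signals, not by a measured background. A probe set counts as measured where at least 1 array reached it, and lower signals were raised to it before a ratio was taken. On this scale 8 of the 9 genes and 12 of the 19 probe sets were measured, and on 9 of these probe sets both arrays reached the floor. Platelet genes check the label of the sample. All 16 annotated platelet and megakaryocyte markers were measured, with log2 signals from 11.7 to 17.4 in Smad4 −/− and from 12.1 to 17.5 in Smad4 f/f. By the probe set that stands for each gene, log2 ratios ran from −0.47 to 0.43. The lowest was that of Selp, whose 3 measured probe sets ran from −1.04 to −0.47. Clec1b, Pf4 and Itga2b, the genes of the receptor CLEC-2, of platelet factor 4 and of the platelet integrin alpha subunit, had log2 ratios of −0.08, 0.04 and 0.25. Smad4 itself had nearly the same signal on both arrays by all 3 of its probe sets, with log2 ratios of −0.09, −0.13 and −0.12. The strongest read 894 in Smad4 −/− and 949 in Smad4 f/f. These signals do not show the deletion, which is taken from the labels. Where the Smad4 probe sets lie relative to the deleted part was not analysed here.

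The genes of the pathway differed in direction. The first enzyme, the last enzyme and the iron importer were 2.40-fold to 3.90-fold higher in Smad4 −/− platelets, while of the enzymes in between, Uros was 2.21-fold lower, Urod was 2.31-fold lower by 1 of its 2 probe sets, and the others were weak or below the floor. Among the 8 measured genes, 3 were higher in Smad4 −/− by 2-fold or more and 2 were lower by as much, 2-fold serving only as a rule of size. The same rule took 3.42% of the 11089 measured genes of the array as higher and 3.58% as lower. The genes were put together with these ratios in view, so nothing is read from the difference between those shares. By probe set, 5 of the 12 measured were higher by that rule and 2 lower, against 3.24% and 3.51% of all 21377 measured probe sets. The median log2 ratio of the 8 genes was 0.11, and that of all measured genes −0.02, with 4 of the 8 above 0 and 4 below. In bulk RNA such as this, fewer cells of a type and less RNA per cell cannot be told apart.

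**Figure D1:**
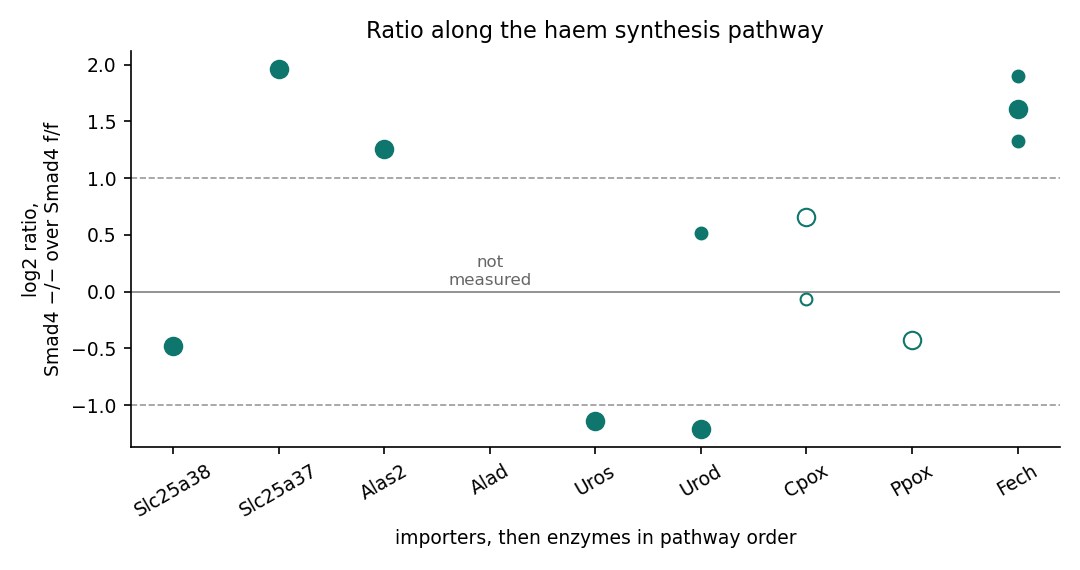
The log2 ratio of Smad4 −/− over Smad4 f/f (vertical axis) is drawn for each measured probe set of the importers and enzymes in pathway order (horizontal axis). Large circles are the probe set that gives the value of the gene, open circles have 1 array below the floor, and dashed lines mark 2-fold. Slc25a37, Alas2 and Fech lie above the upper line, Uros and 1 of 2 probe sets of Urod below the lower one.

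Slc25a38, known as the carrier that brings glycine into the mitochondrion for the first step, read 558 in Smad4 −/− and 777 in Smad4 f/f. Its single probe set (1424418_at) was lower in Smad4 −/− by a log2 ratio of −0.48, short of 2-fold. Slc25a37 encodes mitoferrin-1, which carries iron into the mitochondrion of red cell precursors for the last step. Its single probe set (1417750_a_at) read 2051 in Smad4 −/− and 526 in Smad4 f/f, 3.90-fold higher, and its ratio was the 19th highest of the 11089 measured genes. The log2 ratios of the importers thus had opposite signs and were 2.44 apart, with only that of Slc25a37 past 2-fold.

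Among all 34 measured carriers of the mitochondrial SLC25 family, taken by symbol, 3 were higher by 2-fold or more and 1 was lower. The shares over all measured genes were 3.42% and 3.58%. The median log2 ratio of the carriers was −0.15. Slc25a37 had the highest ratio of these 34. Slc25a22, a glutamate carrier, was at least 2.65-fold higher with Smad4 f/f below the floor, and Slc25a11, the 2-oxoglutarate carrier, was 2.03-fold higher. Slc25a47 was at least 2.56-fold lower with Smad4 −/− below the floor. Slc25a28, which encodes mitoferrin-2, the iron importer of other tissues, read 101.8 in Smad4 −/− and 39.97 in Smad4 f/f, below the floor on both arrays, so no ratio is given for it.

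Alas2, the red cell form of 5-aminolevulinate synthase, joins glycine and succinyl-CoA and sets the rate of the pathway in red cell precursors. Its single probe set (1451675_a_at) read 3387 in Smad4 −/− and 1413 in Smad4 f/f, 2.40-fold higher, at rank 168 from the highest ratio of the measured genes. The form used by other tissues is encoded by Alas1. Its probe set with no marked cross-hybridisation read 59.3 in Smad4 −/− and 88.5 in Smad4 f/f, below the floor on both arrays. The other Alas1 probe set, whose suffix (_x_at) marks probes that also match other sequences, read 55.9 in Smad4 −/− and 263 in Smad4 f/f. The red cell form was therefore well above the floor on both arrays, and the general form was above it on 1 array by 1 of 2 probe sets.

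Alad, which joins 2 molecules of aminolevulinate into the first pyrrole, was the 1 gene of the 9 that was not measured. Its probe sets read 129.6 and 24.6 in Smad4 −/−, against 112 and 22.3 in Smad4 f/f, all below the floor. The enzyme step that follows Alad is not analysed here.

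Uros closes the ring of the first porphyrinogen. Its stronger probe set (1423482_at) read 279 in Smad4 −/− and 615 in Smad4 f/f, 2.21-fold lower, at rank 229 from the lowest ratio. The weaker probe set was also lower, at 69.1 in Smad4 −/− and 129.8 in Smad4 f/f, but lay below the floor on both arrays and is not counted.

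Urod removes carboxyl groups from the ring. Its probe sets disagreed. The one with no mark of cross-hybridisation (1417206_at), which gives the value of the gene, read 155 in Smad4 −/− and 359 in Smad4 f/f, 2.31-fold lower, at rank 193 from the lowest ratio, and its Smad4 −/− signal lay just above the floor. The one marked _x_at read 1227 in Smad4 −/− and 856 in Smad4 f/f, a log2 ratio of 0.52. The mean of both log2 ratios was −0.35, short of 2-fold, so whether Urod differed depends on the probe set.

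Cpox and Ppox catalyse the oxidations that yield protoporphyrin, and both were near the floor. The strongest probe set of Cpox read 229 in Smad4 −/− and 106 in Smad4 f/f, at least 1.57-fold higher. Another Cpox probe set went the other way, with 29.1 in Smad4 −/− and 152 in Smad4 f/f, and the last one, at 93.7 in Smad4 −/− and 81.3 in Smad4 f/f, was below the floor on both arrays. The strongest probe set of Ppox read 72.8 in Smad4 −/− and 196 in Smad4 f/f, at least 1.35-fold lower. Its other probe sets read 42.4 and 14.9 in Smad4 −/−, against 76.1 and 98.3 in Smad4 f/f. All 3 Ppox signals were lower in Smad4 −/−, but 2 of them were below the floor on both arrays.

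Fech, which encodes ferrochelatase, inserts iron into protoporphyrin and completes haem. It was the 1 gene of the 9 for which 3 probe sets reached the floor on both arrays, and all 3 were higher in Smad4 −/−. The strongest (1418699_s_at) read 13904 in Smad4 −/− and 4551 in Smad4 f/f, 3.06-fold higher, at rank 53 from the highest ratio. The second read 5723 in Smad4 −/− and 1532 in Smad4 f/f, 3.74-fold higher, and the third 1953 in Smad4 −/− and 777 in Smad4 f/f, 2.51-fold higher. The fourth, below the floor on both arrays, read 101.2 in Smad4 −/− and 21.2 in Smad4 f/f. The suffix _s_at of the strongest marks probes shared between transcripts, and without it the value of Fech is that of the second probe set. The log2 ratio of Fech was 2.75 above that of Uros.

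**Figure D2:**
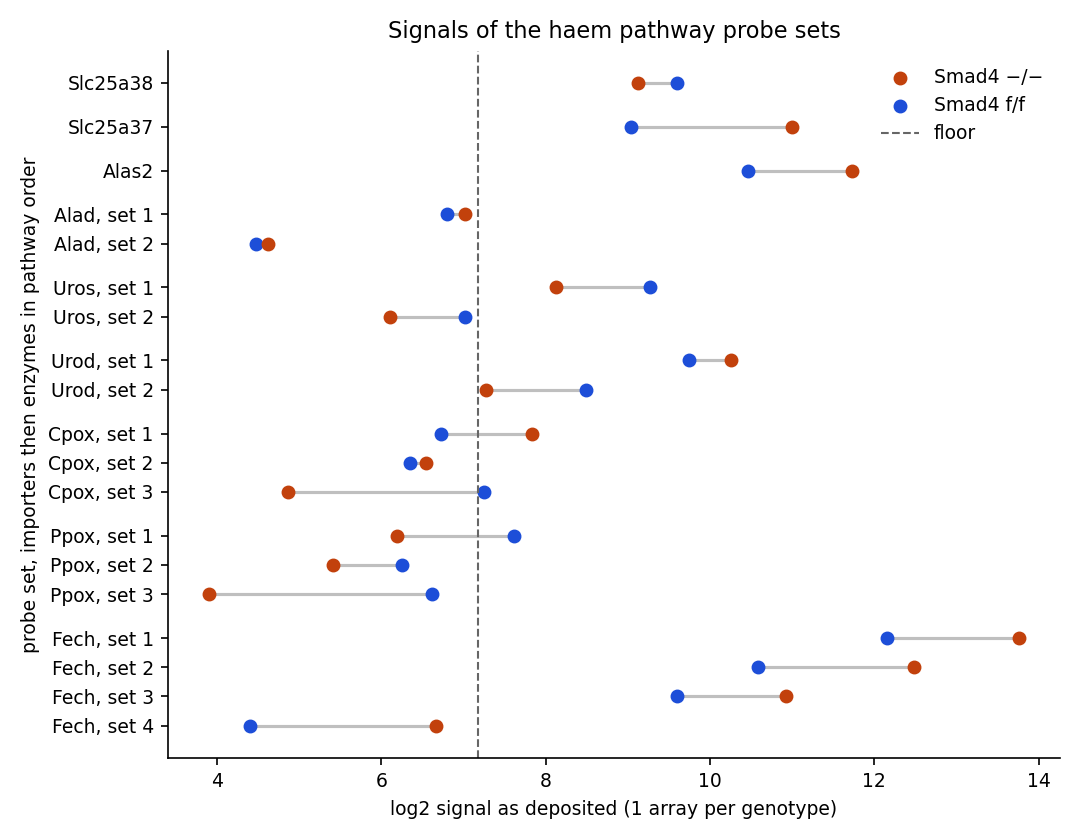
The log2 signal as deposited (horizontal axis) is shown for the 19 probe sets of the 9 genes (vertical axis), with 1 point for the Smad4 −/− array and 1 for the Smad4 f/f array, joined by a line; sets of a gene run from the strongest to the weakest and the dashed line is the floor at 7.18. Fech, Alas2 and Slc25a37 lie well to the right of the floor with Smad4 −/− ahead, whereas Cpox and Ppox straddle it.

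Probe sets of the same gene give the only yardstick that these arrays hold, and it covers technical differences between probe sets, not mice. Among 4252 genes with several measured probe sets, log2 ratios of 1 gene scattered with a pooled SD of 0.48. For brighter probe sets, with a mean log2 signal of at least 9, this SD was 0.31 (1427 genes). The log2 ratios of Slc25a37 (1.96), Fech (1.61) and Alas2 (1.26) all came from such signals. Of the 3853 measured genes that bright, 3.24% were higher in Smad4 −/− by 2-fold or more and 1.82% were lower. Slc25a38 was as bright and lay within 2-fold. The probe sets that stand for Uros, Urod, Cpox and Ppox had weaker signals. The _x_at probe set of Urod was among the brighter ones and had a log2 ratio of 0.52.

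**Figure D3:**
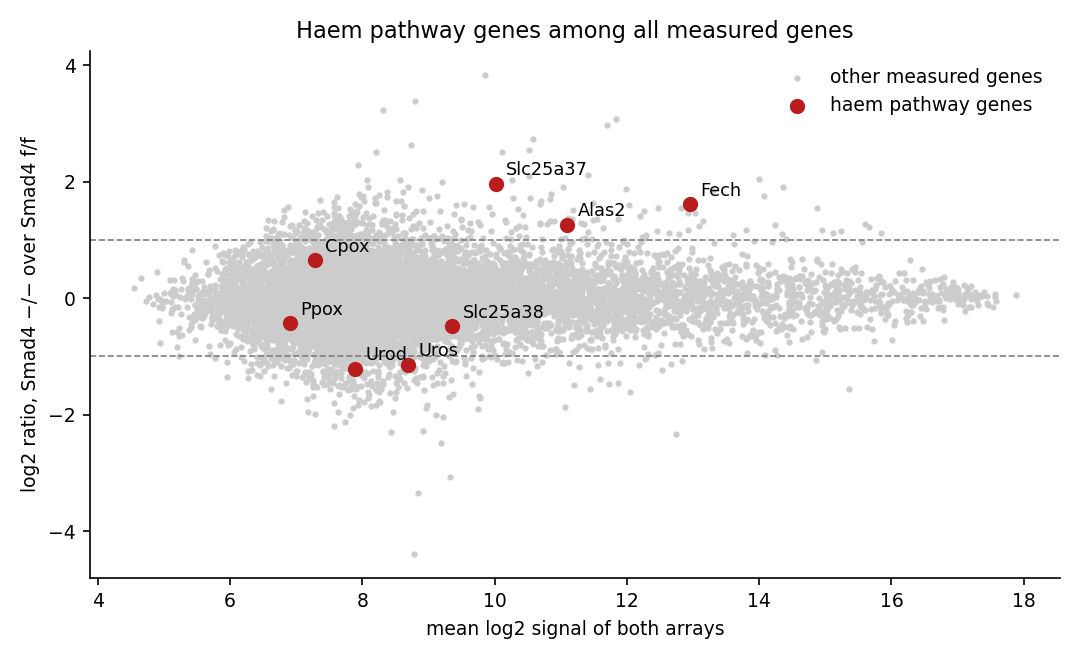
The log2 ratio of Smad4 −/− over Smad4 f/f (vertical axis) is plotted against the mean log2 signal (horizontal axis) for the 11089 measured genes, 1 point each, with the 8 measured haem pathway genes in red and dashed lines at 2-fold. Slc25a37, Alas2 and Fech stand above the upper line in the brighter range, where most genes lie near 0; Uros and Urod fall just under the lower line among weaker genes.

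The sequences before the transcription starts of the genes that passed 2-fold are shown to compare them, since GATA factors and KLF1 are the known activators of haem enzyme genes in red cell precursors and GATA1 is also a factor of megakaryocytes. They come from RefSeq on GRCm38.p6, on the strand of the gene, and hold the 250 bases before the start and the first 50 bases from it. Windows of 7 of the 9 genes were searched, 9 windows in all, and Fech and Slc25a37 were not included in this search. Capitals mark matches on either strand to a GATA word (AGATAA or TGATAA or AGATAG or TGATAG) or to the CACC word bound by KLF factors (CCNCNCCC); some neighbouring CACC matches overlap. Alas2 starts on chrX:150547167-150547466, plus strand. Uros has windows for 2 starts, chr7:133709246-133709545 and chr7:133702451-133702750, both minus strand, and Urod has 1, chr4:116994364-116994663, minus strand.
Alas2: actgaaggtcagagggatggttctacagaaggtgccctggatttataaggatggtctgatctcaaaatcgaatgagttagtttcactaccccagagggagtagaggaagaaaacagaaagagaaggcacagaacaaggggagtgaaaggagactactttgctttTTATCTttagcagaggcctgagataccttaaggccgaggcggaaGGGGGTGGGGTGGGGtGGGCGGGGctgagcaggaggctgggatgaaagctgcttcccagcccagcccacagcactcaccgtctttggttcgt
Uros, upstream start: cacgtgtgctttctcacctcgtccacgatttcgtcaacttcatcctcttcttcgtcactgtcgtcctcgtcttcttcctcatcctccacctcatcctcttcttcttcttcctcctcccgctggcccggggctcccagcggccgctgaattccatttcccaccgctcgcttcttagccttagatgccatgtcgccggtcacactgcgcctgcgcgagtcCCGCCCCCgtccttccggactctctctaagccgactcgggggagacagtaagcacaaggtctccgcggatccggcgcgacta
Uros, downstream start: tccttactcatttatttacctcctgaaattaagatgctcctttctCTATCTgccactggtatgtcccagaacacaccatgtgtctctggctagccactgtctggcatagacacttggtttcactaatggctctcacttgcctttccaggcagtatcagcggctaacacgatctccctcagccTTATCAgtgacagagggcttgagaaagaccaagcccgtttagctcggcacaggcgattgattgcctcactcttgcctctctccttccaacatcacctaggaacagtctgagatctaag
Urod: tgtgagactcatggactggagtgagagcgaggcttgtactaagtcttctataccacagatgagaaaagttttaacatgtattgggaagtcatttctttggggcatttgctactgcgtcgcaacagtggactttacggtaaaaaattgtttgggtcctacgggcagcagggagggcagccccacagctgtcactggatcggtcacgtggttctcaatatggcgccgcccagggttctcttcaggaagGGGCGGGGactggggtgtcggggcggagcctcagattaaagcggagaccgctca

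The Alas2 window held 1 GATA match, whose first printed base lies 86 bases before the start, and 4 CACC matches beginning from 42 to 26 bases before it. The upstream Uros window held 1 CACC match and 0 GATA matches, and the downstream one 2 GATA matches, at 205 and 68 bases before its start, and 0 CACC matches. Uros is known to be read from a housekeeping and a red cell promoter, and which of these windows is which was not analysed here. The Urod window held 1 CACC match, at 4 bases before the start. Of the 9 windows, 3 held a GATA match and 8 a CACC match, against 29.8% and 49.5% of the 32851 windows of the same length in the table. The windows of Alad overlap and share CACC matches, so the 9 are not independent, and nothing is read from the difference between these shares. A match is a string of letters, not a site shown to be bound, and these arrays carry no measurement of binding.

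From a list of 29 genes of haem transport, breakdown and control, 20 were measured. Of these, 15 were above the floor on both arrays and lay within 2-fold. The other 5 had 1 array below the floor, so their folds are bounds, and 0 of the bounds reached 2-fold. The median log2 ratio was −0.13. With no floor, 1 gene of this list passed 2-fold as higher and 3 as lower, and the shares of all measured genes given above are small enough that a count of 0 in 20 is not a result about this list. By signal the leading members were Tspo, which encodes the outer mitochondrial membrane protein that binds porphyrins and cholesterol, and Pgrmc1, a haem-binding partner of ferrochelatase. Tspo read 92043 in Smad4 −/− and 73905 in Smad4 f/f, a log2 ratio of 0.32. Pgrmc1 read 9075 in Smad4 −/− and 13108 in Smad4 f/f, a log2 ratio of −0.53. Abcg2, a porphyrin exporter, read 289 in Smad4 −/− and 135 in Smad4 f/f, at least 1.99-fold higher, a bound that does not place it inside 2-fold. Tmem14c, which moves a porphyrin precursor into the mitochondrial matrix, read 3654 in Smad4 −/− and 7077 in Smad4 f/f, 1.94-fold lower. Probe sets disagreed for Slc25a39, a mitochondrial carrier for glutathione, whose 4 measured ones ran from −0.17 to 1.07 on the log2 scale, and for Eif2ak1, the haem-regulated kinase, whose 2 gave −1.40 and −0.12. The haem oxygenases Hmox1 and Hmox2, which break haem down, had log2 ratios of −0.11 and 0.15, and Bach1, the haem-sensing repressor, one of −0.13. Abcg2, Tmem14c, Slc25a39, Eif2ak1, Hmox1, Hmox2 and Bach1 were singled out after their values were seen.

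Ferrochelatase holds an iron-sulphur cluster, which is built from the same mitochondrial iron. Of 16 genes of iron-sulphur cluster assembly, 13 were measured. The 11 above the floor on both arrays lay within 2-fold, and the bounds of the other 2 did not reach it. With shares of 3.42% higher and 3.58% lower among all measured genes, a count of 0 in 13 is not a result about this list. The median log2 ratio was 0.31, with 9 above 0 and 4 below. Isca1 and Iscu, the strongest members, an assembly protein and the scaffold of the cluster, had log2 ratios of 0.03 and 0.31.

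Alas2, Fech and Slc25a37 are also genes of red cells and their precursors, so markers of those cells were read on the same arrays. Of 37 red cell and reticulocyte markers 23 were measured. Of these, 6 were higher in Smad4 −/− by 2-fold or more and 0 were lower, against 3.42% and 3.58% of all measured genes. The median log2 ratio was 0.24, with 15 above 0 and 8 below. Hba-a1, Rhag, Kel, Epb42 and Car1 were on the array, but the probe set that stands for each was below the floor in both genotypes. With any probe set of a gene allowed, 24 markers of the list were measured. The 6 were Tent5c (2.91-fold), which adds tails to mRNA, Bpgm (2.65-fold), the enzyme that makes 2,3-bisphosphoglycerate, Fbxo7 (2.45-fold), a ubiquitin ligase subunit, Car2 (2.40-fold), a carbonic anhydrase, Slc4a1 (2.36-fold), the red cell anion exchanger, and Trim10 (at least 2.32-fold). The summed signal of the measured markers was 98177 in Smad4 −/− and 54516 in Smad4 f/f, of which Tent5c alone made 51224 in Smad4 −/− and 17577 in Smad4 f/f.

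Globin transcripts, which define red cells, were strong on both arrays and nearly equal. The 4 probe sets that the adult globin genes share (3 for alpha, 1 for beta) read from 84885 to 138874 in Smad4 −/− and from 86681 to 125095 in Smad4 f/f, with log2 ratios from −0.03 to 0.21. They lay near the top of the scale, where the highest log2 signal of any probe set was 17.9, and whether they were saturated was not analysed here. The globin probe sets annotated to a single gene were weaker, with Hba-a2 at 781 in Smad4 −/− and 1014 in Smad4 f/f, and Hbb-b2 with log2 ratios of −0.97 and 0.91 by its 2 probe sets. Klf1, the red cell transcription factor, had a log2 ratio of −0.31, Tfrc, the transferrin receptor of immature red cells, one of −0.61, and Epor, the erythropoietin receptor, one of 0.60, none past 2-fold. These genes were named after their values were seen, and the part that red cell or reticulocyte RNA has in the ratios of Alas2, Fech and Slc25a37 was not tested.

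**Figure D4:**
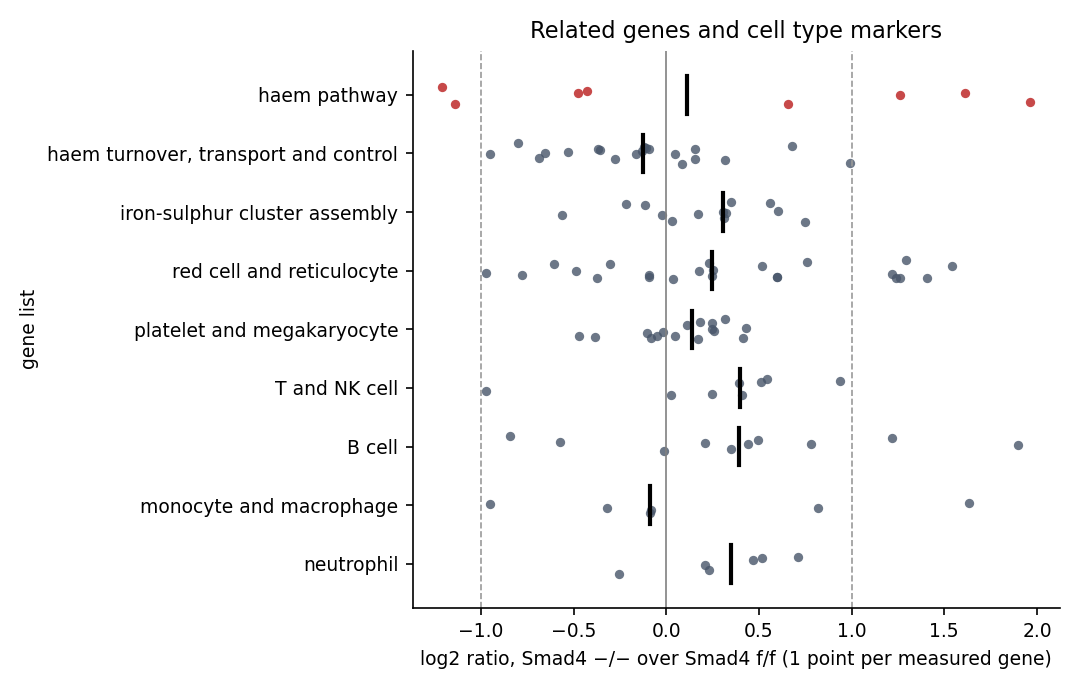
Each point is the log2 ratio of Smad4 −/− over Smad4 f/f (horizontal axis) of 1 measured gene, by gene list (vertical axis), with the median as a black bar and dashed lines at 2-fold. The haem pathway genes spread from −1.21 to 1.96, the red cell list has 6 genes past the upper line, and the platelet list stays between −0.47 and 0.43. Each gene is drawn by the probe set that stands for it, and Selp probe sets not drawn reach −1.04.

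Markers of white cells were read in the same way, beside shares past 2-fold of 3.42% higher and 3.58% lower among all measured genes. Of 8 measured T and NK cell markers 0 reached 2-fold, counting 2 bounds, and the median log2 ratio was 0.40, with summed signals of 4047 in Smad4 −/− and 3263 in Smad4 f/f. Zap70 and Nkg7, a T cell kinase and a granule protein of cytotoxic cells, were the strongest, with log2 ratios of 0.51 and 0.02. Cd3d, named after its value was seen, read 181 in Smad4 −/− and 356 in Smad4 f/f, a log2 ratio of −0.98. It was the 1 gene of the 8 below 0, with 7 above. The probe sets that stand for Cd3e, Cd3g, Cd247, Cd5 and Cd4 were below the floor in both genotypes. Of 6 measured neutrophil markers 0 reached 2-fold as well, but 4 of them are bounds, with a median of 0.35 and summed signals of 7757 in Smad4 −/− and 5967 in Smad4 f/f. S100a8 and S100a9, which form calprotectin, led them with log2 ratios of 0.23 and 0.47. The probe sets that stand for Elane, Mpo, Camp and Mmp8 were below the floor in both genotypes.

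Among 10 measured B cell markers, Jchain, of plasma cells, was higher by at least 3.73-fold and Cr2, a complement receptor, by 2.33-fold. By 2-fold or more, 3.42% of all measured genes were higher and 3.58% lower. The median log2 ratio of the B cell list was 0.39, and its summed signals were 7551 in Smad4 −/− and 6286 in Smad4 f/f. Among 6 measured monocyte and macrophage markers, Csf1r, the receptor of their growth factor, was 3.11-fold higher by its brightest probe set, but its 3 measured probe sets ranged from −0.48 to 1.64 on the log2 scale. Of these 6 markers, 2 had log2 ratios above 0 and 4 below, and 3 of the 6 are bounds. Mpeg1, named after its value was seen, read 70.7 in Smad4 −/− and 280 in Smad4 f/f, at least 1.93-fold lower. The monocyte and macrophage list had a median of −0.09 and summed signals of 132349 in Smad4 −/− and 140705 in Smad4 f/f. Lyz2, the gene of lysozyme, alone made 131259 of the sum in Smad4 −/− and 139723 in Smad4 f/f, and the other 5 markers summed to 1090.3 in Smad4 −/− and 982 in Smad4 f/f. The part of white cell RNA in the ratios of the haem genes was not tested.

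As a sign of RNA quality, the signal at the 3' end of Gapdh divided by that at its 5' end was 2.61 in Smad4 −/− and 1.86 in Smad4 f/f, and for beta-actin it was 1.27 in Smad4 −/− and 1.16 in Smad4 f/f. Where the probe sets of the 9 genes lie along their transcripts was not analysed here, and the part of RNA quality in their ratios was not tested.

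The value of each of the 8 measured genes kept its direction under every normalisation, floor and summary that measured it. Cpox and Ppox were not measured with the highest floor. For Urod and Cpox, whose probe sets disagreed, this does not settle the direction. No setting took Urod from its _x_at probe set alone (log2 ratio 0.52), and none averaged the Cpox probe sets without the floor. Slc25a37, Fech and Alas2 were 2-fold or more higher, and Uros 2-fold or more lower, under all 8 other settings for values. Urod passed 2-fold or not by the setting, and Cpox and Ppox have folds that are bounds here. Cpox passed 2-fold as higher with no floor or one at the 50th percentile, and Ppox passed it as lower with no floor.

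**Figure D5:**
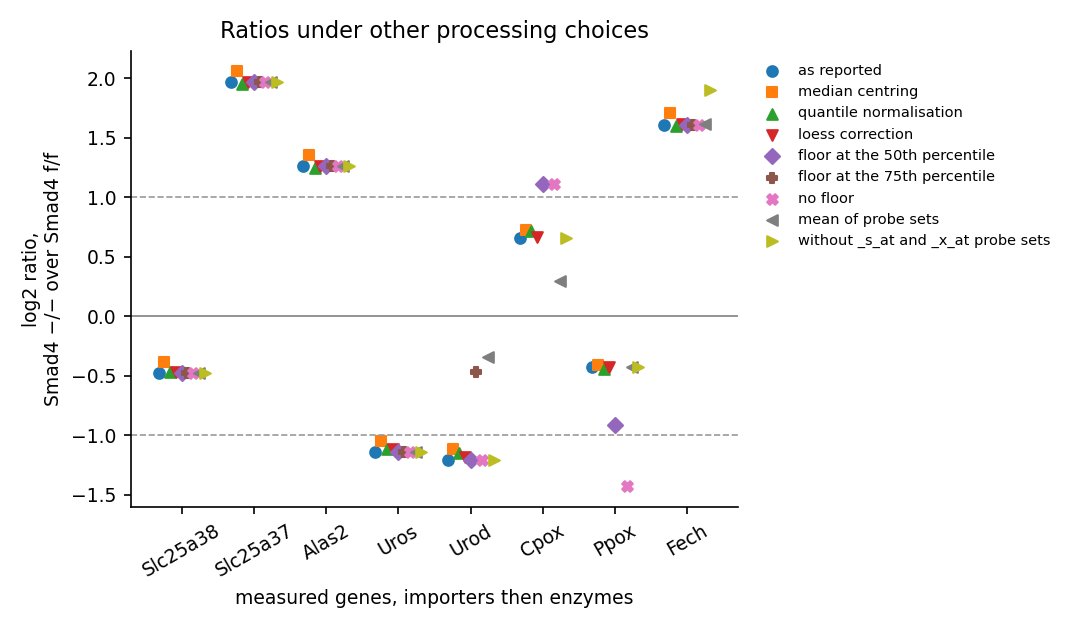
The log2 ratio of Smad4 −/− over Smad4 f/f (vertical axis) is shown for the 8 measured genes (horizontal axis) as reported and under 8 other processing choices, 1 symbol each, with dashed lines at 2-fold. Symbols nearly coincide for Slc25a38, Slc25a37, Alas2 and Uros, and spread for Urod (from −1.21 to −0.35), Cpox (from 0.30 to 1.11) and Ppox (from −1.43 to −0.41).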

How the data were processed

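Total RNA of washed platelets was labelled by 3' in vitro transcription and hybridised to Affymetrix Mouse Genome 430 2.0 arrays, 1 per genotype, per the labels' protocols. The authors deposited log2 signals for each probe set, made with MAS5 per the submitters' processing notes, which give no settings. Base and scaling were inferred from the values: the 2% trimmed mean of the antilogs is 500.01 for either array.

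Control probe sets (64 of 45101) were left out. Symbols are those of GEO's platform annotation, checked through Entrez IDs against RefSeq genes of GRCm38.p6, which matched 34741 of 34945 probe sets with 1 symbol and changed 0; 932 with several symbols and those with none were not used for genes. The floor is the higher of the arrays' 60th percentiles. The brightest probe set by mean log2 signal stands for a gene, those ending in _x_at only for want of another, and a gene is measured if that probe set reaches the floor on an array; 11089 genes were. A ratio with 1 side below the floor is a bound ("at least"). Ratios divide Smad4 −/− by Smad4 f/f.

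All probe sets of the 9 genes were named. In other lists, genes past 2-fold were named, at most 6, or else the 2 with the highest signal. The members, lists, rules and alternatives were chosen with earlier results of these data known. The steps were tested on simulated arrays, with changes larger than 2-fold placed only in genes that have a bright probe set. That test does not cover genes with weak signals alone. Python 3.11.15, pandas 2.3.3 and statsmodels 0.14.6 were used. Alternatives were other normalisations, floors, gene summaries and fold rules.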

Additional observations from a re-analysis of the deposited data

How the results depend on the processing

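No paired analysis was possible because there is 1 array per genotype, and for the same reason no replicate could be left out. The count of haem pathway genes at least 2-fold lower was 1 with the floor at the 75th percentile or the mean of probe sets, and 0 under a 3-fold rule, against 2 as reported; Urod is the gene lost under the first 2 of these, at log2 ratios of −0.47 and −0.35. The count of genes at least 2-fold higher stayed within 1.5 times of 3. By probe set the count lower was 1 with the floor at the 75th percentile, 4 with no floor and 0 under a 3-fold rule, and the count higher was 3 under a 3-fold rule. Genes of haem turnover, transport and control gave 1 higher with median centring, quantile normalisation, loess, the floor at the 50th percentile or none, and 2 under a 1.5-fold rule, against 0 as reported; the count lower was 2 with the floor at the 50th percentile, 3 with none and 4 under a 1.5-fold rule. Iron-sulphur genes gave 1 higher with the floor at the 50th percentile or none, 2 under a 1.5-fold rule, and 1 lower with no floor. Red cell markers gave 3 lower under a 1.5-fold rule and 0 higher under a 3-fold rule. Over all genes, the higher and lower counts, added after seeing the data, were 671 and 762 for the 50th percentile floor, 175 and 140 for the 75th, 1130 and 1301 for none, 1308 and 1480 at 1.5-fold and 57 and 46 at 3-fold. Alad was measured only with the floor at the 50th percentile, with a log2 ratio of 0.22. No log2 ratio of a measured haem pathway gene changed sign between settings, although single probe sets of Urod and of Cpox disagreed in sign. The median log2 ratio of the haem pathway genes, 0.11 as reported, was −0.02 with the mean of probe sets. With the floor at the 75th percentile it was 0.40, so its sign and size depend on the setting. Signals near the floor limit what can be said of Urod, Cpox and Ppox.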

Other observations

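The substrates and users of haem synthesis were read from lists drawn up after the results above were known. The first enzyme needs succinyl-CoA and glycine. Of 12 genes of their supply 9 were measured. Of these, 0 were higher in Smad4 −/− by 2-fold or more and 2 were lower by as much. Among all measured genes 3.42% were higher and 3.58% lower. Sucla2 encodes a subunit of succinyl-CoA synthetase that is known to bind the red cell form of aminolevulinate synthase. It read 2252 in Smad4 −/− and 6213 in Smad4 f/f, 2.76-fold lower by its single measured probe set. Dld, a subunit of the complex that makes succinyl-CoA from 2-oxoglutarate, read 85.5 in Smad4 −/− and 387 in Smad4 f/f, at least 2.67-fold lower. The other subunits of the synthetase lay within 2-fold, with a log2 ratio of 0.10 for Suclg1 and, by 2 probe sets that disagreed, −0.34 and 0.50 for Suclg2.

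Of 15 symbols of haem proteins known from platelets and other cells 12 were measured. Of these, 1 was higher by 2-fold or more and 0 were lower, against 3.42% and 3.58% of all measured genes. Cat, which encodes catalase and is also abundant in red cells, read 77331 in Smad4 −/− and 32029 in Smad4 f/f, 2.41-fold higher, with log2 ratios of 0.95 and 1.27 by its 2 probe sets. Tbxas1, which makes thromboxane, had a log2 ratio of 0.37, and Gucy1b1, of the nitric oxide receptor, one of 0.15. Ptgs1, the haem enzyme before thromboxane synthase in platelets, has no probe set annotated to it alone and was not analysed here. The list median was −0.01. These are differences between 2 arrays with no replicates.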
